A study of Mus musculus with 12 samples.

Results

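The genes described here are 10 chaperone and stress genes of mouse soleus, a slow postural muscle of the lower leg, out of 28997 genes listed for the series. They were matched by symbol, from a list drawn up with earlier results of these data known. The 7 cytosolic members are Hspa1a, Hspa1b, Hspa8, Hsph1, Dnajb1, Hspb1 and Cryab. The 3 endoplasmic reticulum (ER) members are Hspa5, Dnajb9 and Xbp1. All 10 were found, and all 10 passed the filter used for rebuilt values, a total of at least 100 normalised reads over the 12 libraries.

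RNA sequencing was done on soleus from 4 groups of 3 mice, which crossed a genotype (Cdh5cre-WT or Cdh5cre-NOX1CKO) with a diet (chow or high fat, for 8 weeks). The mice of every group, the wild-type ones included, are labelled as carrying Cdh5cre, a Cre recombinase whose promoter is active in endothelial cells, and the label NOX1CKO denotes a conditional knockout of NOX1. Strain and age are not given in the sources used here. The values used come from 4 tables of the authors' comparisons, which call the groups G1, G2, G3 and G4. The labels do not say which code is which genotype or diet, so every result is given by code and none is assigned to the knockout or the diet. A comparison is written G3/G1 for the level in G3 relative to that in G1.

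The tables hold no values per library. What could be recovered is the mean level of a gene in each group, in normalised reads per library, and the error of each comparison, as an implied standard error (SE) derived from the authors' fold change and p-value. The libraries held 24905255 normalised reads on average. Nox1, the targeted gene, had a total of only 25.2 normalised reads over the 12 libraries, and its log2 fold changes in the authors' deposited tables, -0.23 for G3/G1, -0.71 for G4/G2 and 0.15 for G4/G3, had implied SEs between 1.25 and 1.33, so it could not serve as a check of the labels. Markers of soleus fibres were abundant, with a median of 34119 normalised reads per library and kilobase of exon over 9 genes. Markers of fast fibres were nearly as abundant, with a median of 32740 over 7 genes. Markers of endothelial cells were far lower, with a median of 198 over 8 genes. The tissue is a mixture of cells, so fewer cells of a type and less RNA per cell cannot be told apart.

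Chaperones bind unfolded proteins and help them to fold, to reach their compartment or to be degraded. In the cytosol the heat shock factors switch on inducible chaperones when proteins unfold, by binding heat shock elements in their promoters. In the ER lumen, unfolded proteins draw the chaperone BiP away from membrane sensors and start the unfolded protein response, which raises ER chaperones through XBP1, ATF6 and ATF4. Muscle fibres are rich in small heat shock proteins, which hold sarcomeric proteins under mechanical load, and their sarcoplasmic reticulum is a specialised ER.

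Promoter sequence is shown for the members whose levels spread most between groups and for which a regulatory motif was found, so that the control elements searched for can be seen in place. Of the 10 members, 8 had an entry in the RefSeq table of promoters (GRCm38.p6), and Hspa8 and Cryab did not. The 250 bases before the start of transcription are given 5′ to 3′ on the gene's own strand, in lower case, with capitals marking a match to the core of a heat shock element, a pair of units facing inward (GAANNTTC). They lie at chr17:34972157-34972406 on the minus strand (Hspa1a), chr17:34959239-34959488 on the minus strand (Hspa1b) and chr5:135887669-135887918 on the plus strand (Hspb1).
Hspa1a: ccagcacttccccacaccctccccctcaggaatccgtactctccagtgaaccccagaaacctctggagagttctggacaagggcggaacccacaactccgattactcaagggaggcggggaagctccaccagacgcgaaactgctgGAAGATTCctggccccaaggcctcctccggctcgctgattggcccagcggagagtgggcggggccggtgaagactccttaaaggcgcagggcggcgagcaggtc
Hspa1b: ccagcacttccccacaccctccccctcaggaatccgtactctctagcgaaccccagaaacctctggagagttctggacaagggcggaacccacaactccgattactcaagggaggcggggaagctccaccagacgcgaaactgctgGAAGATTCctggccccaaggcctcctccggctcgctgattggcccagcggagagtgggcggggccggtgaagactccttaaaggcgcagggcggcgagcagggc
Hspb1: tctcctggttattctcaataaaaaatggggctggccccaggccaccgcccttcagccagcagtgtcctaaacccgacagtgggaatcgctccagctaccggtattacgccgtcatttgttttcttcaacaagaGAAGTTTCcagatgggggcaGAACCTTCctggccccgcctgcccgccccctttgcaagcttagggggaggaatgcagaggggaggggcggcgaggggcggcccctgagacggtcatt
The windows of Hspa1a and Hspa1b differed at 3 of 250 bases (98.8% identical), and both held GAAGATTC from 104 to 97 bases before the start. Hspb1 held GAAGTTTC from 117 to 110 and GAACCTTC from 97 to 90 bases before it. For the ER chaperone Hspa5, the match was to the ER stress response element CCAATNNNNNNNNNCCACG, from 65 to 47 bases before the RefSeq start, in the window chr2:34771840-34772089 on the plus strand, and only the match is printed, since that start lies inside the GENCODE gene.
Hspa5: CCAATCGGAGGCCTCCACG
Both strands were searched in the 250 bases before the start, for the members and for all promoters. GAANNTTC occurred in 6.69% of 32851 promoters, and the ER stress response element in 0.113%. The outward pair TTCNNGAA, present in 7.17% of promoters, was found in both windows of Hsph1, and it shares units with GAANNTTC where the elements run on. No member window held the 3-unit element GAANNTTCNNGAA, present in 0.466% of promoters, or the unfolded protein response element TGACGTGG, present in 0.563%. These matches are descriptions of sequence and say nothing of binding.

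The 10 members covered a wide range of abundance. Per kilobase of exon, the mean level over the 12 libraries was highest for Cryab, alpha-B crystallin, a small heat shock protein of muscle and lens, at 28526 normalised reads. It was lowest for Dnajb1, an inducible co-chaperone of HSP70, at 64.4, a ratio of 443. Hspa8, the constitutive HSC70, stood at 2832 and Hspb1, the small heat shock protein HSP25, at 2545. Among the ER members Hspa5, which encodes BiP, stood at 1164, and Xbp1 and Dnajb9 at 333 and 332. The inducible HSP70 genes Hspa1a and Hspa1b stood at 430 and 277, and Hsph1, the nucleotide exchange factor HSP110, at 184. Cryab alone took 0.169% of all normalised reads.

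Across the groups, G4 had the highest mean level for 8 of the 10 members, all but Hsph1 and Dnajb1. The share of all genes with their highest mean in G4 was not computed, so this count does not set the members apart. The spread between the highest and lowest group mean was below 1.1-fold for 3 members, Hspa8, Hsph1 and Cryab, and reached 1.69-fold for Hspa1a, 1.67-fold for Hspa1b and 1.58-fold for Dnajb1. No member passed the adjusted test in any comparison the tables allow.

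**Figure D1:**
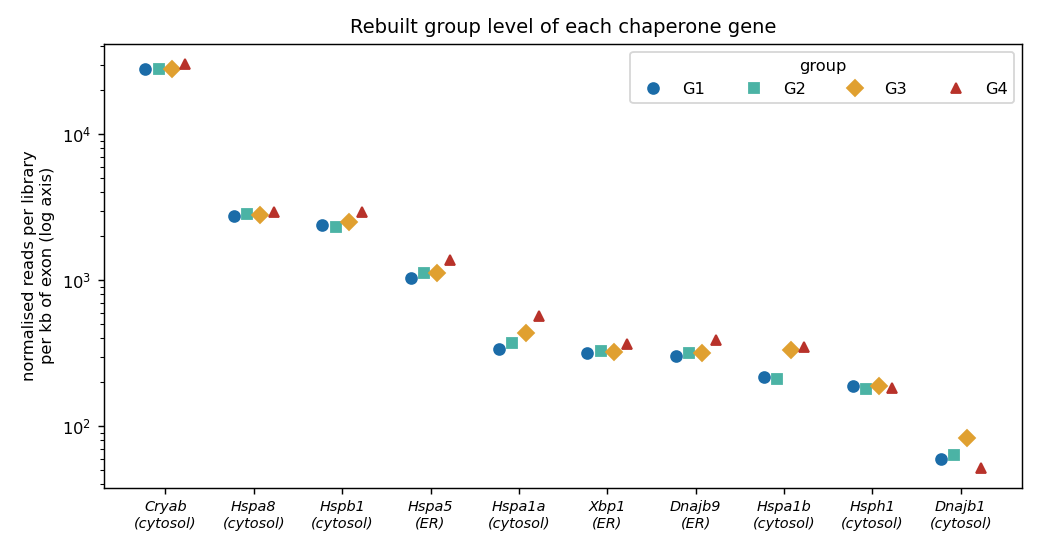
Mean level of each of the 10 genes in groups G1 to G4, rebuilt from the authors' totals and ratios. The log axis gives normalised reads per library and kilobase of exon. Before division by exon length, Hspa1a runs from 1008 in G1 to 1700 in G4, and Hsph1 stays between 1309 and 1369. The tables hold no values per library, so no spread within a group is drawn.

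The authors' 4 comparisons share groups: G3/G1 and G2/G1 share G1, and G4 enters both others. Members that point one way in several comparisons are therefore not independent repeats. In G3/G1, 0 of 10 members were called, that is, had an adjusted p under 0.05 in the authors' deposited table, against 0.21% of 28997 genes. In G4/G2, 0 of 10 passed in the authors' deposited table, against 1.38% of 14539 genes with an adjusted p. In G4/G3, 0 of 10 passed in the authors' deposited table, against 0.0394% of 17752 genes. The authors' deposited table of G2/G1 holds no gene with a positive log2, so Hspa1a, Hspa8, Dnajb1, Hspa5, Dnajb9 and Xbp1 were rebuilt from the other 3 tables. There, 0 of 10 members passed, against 0.00428% of 23354 genes listed or rebuilt. With shares this low among all genes, 0 calls in 10 genes does not set the members apart.

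At an unadjusted p under 0.05 the counts of members were 0 of 10 in G2/G1 (2.35% of 15494 genes with a total of at least 100), 0 in G3/G1 (5.63%), 1 in G4/G2 (9.06%) and 2 in G4/G3 (4.83%). The member in G4/G2 was Dnajb9, and those in G4/G3 were Dnajb9 and Dnajb1. With a t distribution of 8 degrees of freedom in place of the normal one, 0 members were called in every comparison. That was fixed beforehand, since its heavier tails can only raise a p-value.

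The difference between G4/G2 and G3/G1 was tested for every member. It is called the interaction here, and it is that of genotype and diet only if G1 and G4 differ in both, which the labels do not state. It called 0 of 10, against 0.00645% of 15494 genes, with 0 members at an unadjusted p under 0.05 (4.12% of genes). The mean of G3/G1 and G4/G2 called 0 of 10, against 1.65% of genes, and the mean of G2/G1 and G4/G3 called 0 of 10, against 0.0452%. Neither mean had a member at an unadjusted p under 0.05, where 9.74% and 3.12% of genes stood.

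**Figure D2:**
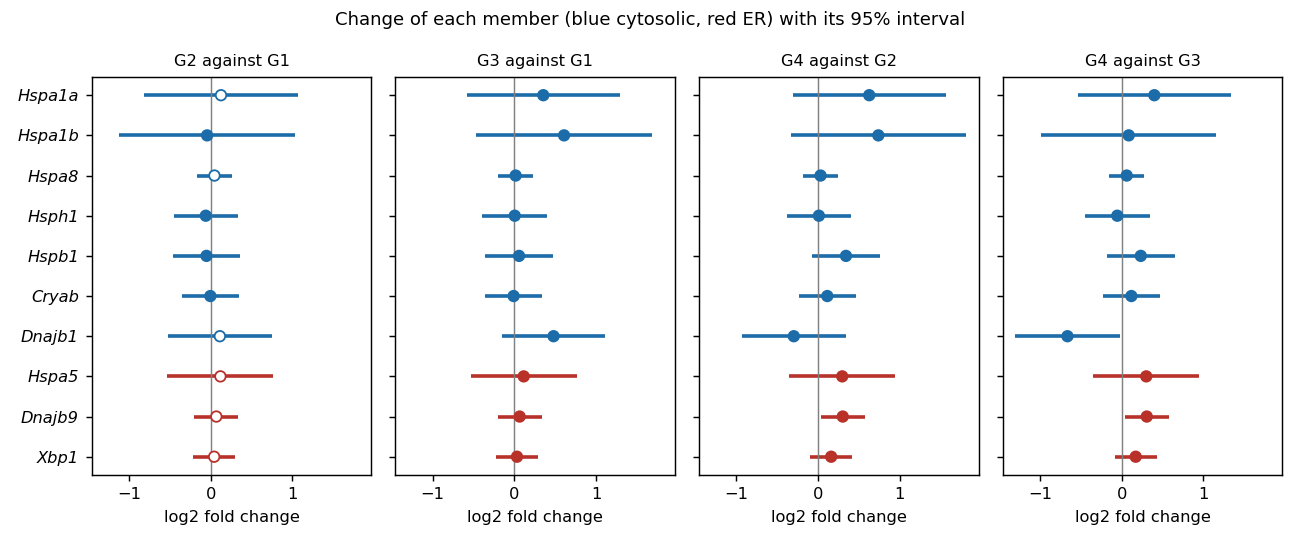
Log2 fold change of each of the 10 genes in the 4 comparisons, with 95% intervals from the implied standard errors; filled points are deposited values and open points are rebuilt. The intervals of Dnajb9 in G4/G2 and G4/G3 and of Dnajb1 in G4/G3 leave out 0, and no point passes the adjusted test.

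The inducible HSP70 genes had the widest errors of the 10 members, and Hspa1b had the largest fold change, in G4/G2. Hspa1a (chr17:34969190-34972156) had group means of 1008, 1101, 1289 and 1700 normalised reads per library in G1 to G4. Its largest log2 fold change in the authors' deposited tables was 0.63 in G4/G2, with an implied SE of 0.48 and a p of 0.19 (adjusted 0.789). Neighbouring groups in this order did not differ beyond that error wherever the tables compare them, G1 with G2 and G3 with G4, and G2 and G3 are compared by none.

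Hspa1b (chr17:34956436-34959238), which encodes nearly the same protein, had means of 608, 590, 927 and 985 in G1 to G4, so G3 and G4 stood together above G1 and G2. Its log2 fold change in the authors' deposited tables was 0.61 in G3/G1 (p = 0.267) and 0.74 in G4/G2 (p = 0.178), each with an implied SE of 0.55. Over the 4 comparisons its 95% intervals reached from a ratio of 0.46, in G2/G1, to one of 3.51, in G4/G2. A rise of more than 2-fold was left out in none of them. A fall of more than 2-fold lay within the interval of G2/G1 only. The low ends of the others were 0.725 in G3/G1, 0.793 in G4/G2 and 0.505 in G4/G3. Hspa1a and Hspa1b share sequence: 58.8% of the 50-base words of Hspa1a occur in Hspa1b, so reads can be split between them. Summed, the pair had 1617, 1691, 2216 and 2684 normalised reads per library in G1 to G4, with log2 ratios of 0.45 for G3/G1 and 0.67 for G4/G2, for which no error can be had. Hspa1l, a related HSP70 gene, shares 7.95% of the words of Hspa1a and had group means of 1797, 2135, 1903 and 2063, a different order from that of Hspa1a. Hspa1a also overlaps the antisense gene Gm20481.

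Hspa8 and Hsph1 had the narrowest spread of group means, 1.05-fold from lowest to highest for each. Hspa8 (chr9:40800984-40810087) had group means between 11888 in G1 and 12540 in G4, and its log2 fold changes in the authors' deposited tables and as rebuilt lay between 0.02 and 0.06. Its implied SE of 0.11 gave 95% intervals that stayed between ratios of 0.871 and 1.21. Of its 50-base words 34.6% occur in the processed pseudogene Gm15459, whose total of 235266 normalised reads exceeded the 146162 of Hspa8 itself. The level of Hspa8 is therefore uncertain, although with its copies summed over 10 genes the log2 ratios stayed between 0.02 and 0.04.

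Hsph1 (chr5:149614287-149636376), which resets HSP70 by exchanging its nucleotide, shared none of its 50-base words with another gene. Its group means were 1364, 1309, 1369 and 1319 in G1 to G4. The log2 fold changes ran from -0.06 to 0.01 in the authors' deposited tables, with an implied SE of 0.20, and the 95% intervals covered ratios from 0.73 to 1.32.

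Dnajb1 (chr8:83608193-83612653), the J-domain protein that delivers clients to HSP70, had the only cytosolic member p under 0.05. Its group means were 189, 205, 264 and 167 in G1 to G4, so G3 was the highest group and G4 the lowest. The fold changes of Dnajb1, as log2 values in the authors' deposited tables, were 0.48 in G3/G1 (p = 0.138), -0.30 in G4/G2 (p = 0.363) and -0.66 in G4/G3 (p = 0.0413, adjusted 0.9997), with an implied SE near 0.33. The interaction was -0.78 with an implied SE of 0.46 (adjusted p = 0.9997). It opposed Hspa1a and Hspa1b, its HSP70 partners, in G4/G2 and in G4/G3, where they had log2 fold changes of 0.63 and 0.74, and of 0.40 and 0.09, in the authors' deposited tables, and the difference between the genes was not tested.

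Of the small heat shock proteins, Cryab (chr9:50751325-50756636) had group means of 41461, 41351, 41214 and 44734 in G1 to G4. Its log2 fold changes in the authors' deposited tables were 0.00 and -0.01 in G2/G1 and G3/G1, and 0.11 and 0.12 in G4/G2 and G4/G3, with an implied SE of 0.18. Cryab overlaps Hspb2, a small heat shock gene on the opposite strand. Hspb1 (chr5:135887919-135889563), HSP25, had group means of 2482, 2395, 2582 and 3036, highest in G4. Its log2 fold change in the authors' deposited tables was 0.34 in G4/G2 (implied SE 0.21, p = 0.106, adjusted 0.677) and 0.23 in G4/G3 (p = 0.27). After removal of trends with GC content, length and total, these 2 values were 0.17 and 0.08 for Hspb1, and those of Cryab were 0.03 and 0.03.

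A near-identical copy of Hspb1 passed the adjusted test. Hsp25-ps1, a processed pseudogene (chr13:45078498-45079127), holds 48.8% of the 50-base words of Hspb1 and had a total of 26287 normalised reads against 31486 for Hspb1. Its group means were 2000, 1669, 2116 and 2978. Its log2 fold change in the authors' deposited table was 0.84 in G4/G2, with an implied SE of 0.23 and a p of 2.06e-04 (adjusted 0.0209). The call was lost with a t distribution of 8 degrees of freedom (adjusted p = 0.635) and after removal of trends with GC content, length and total (adjusted p = 0.254). It was picked out after its values were seen. Because reads of the gene and its copy can be split either way, the sum is the safer quantity: 4482, 4064, 4698 and 6014 normalised reads per library in G1 to G4, a log2 ratio of 0.57 in G4/G2 and 0.36 in G4/G3, with no error to be had. Gm15459, the copy of Hspa8, had log2 fold changes of 0.01 to 0.04 over the 4 comparisons and no call. Whether Hsp25-ps1 and Hspb1 differ from each other was not tested.

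**Figure D3:**
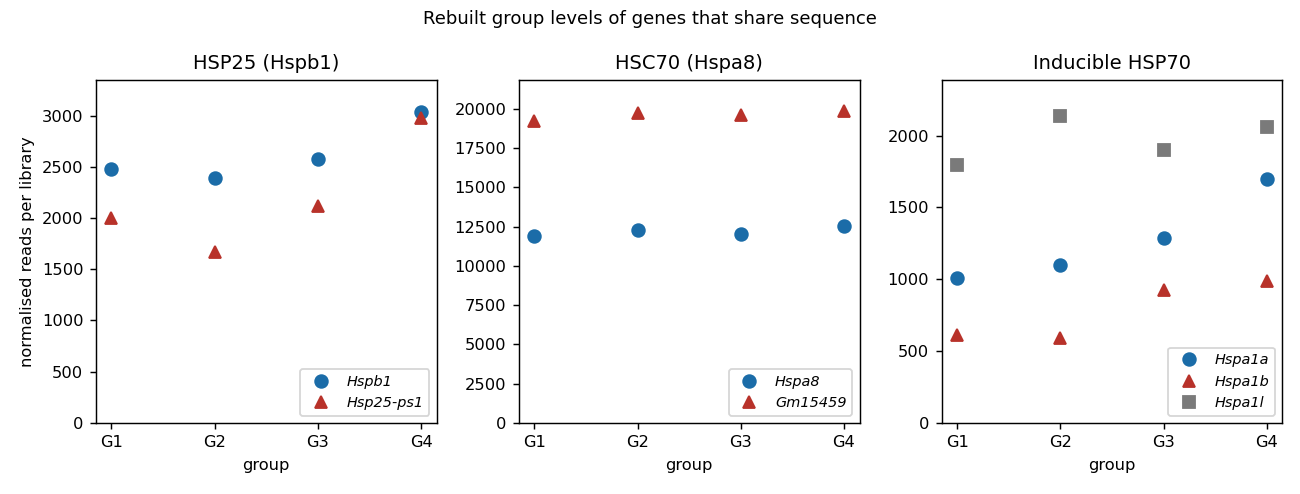
Group levels, in normalised reads per library, of Hspb1 with Hsp25-ps1, of Hspa8 with Gm15459, and of Hspa1a with Hspa1b and Hspa1l, genes between which reads can be split. Hsp25-ps1 goes from 1669 in G2 to 2978 in G4 and Hspb1 from 2395 to 3036; no spread within a group can be drawn.

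The ER members had positive log2 fold changes in all 4 comparisons, each highest in G4 and lowest in G1. The same held for the cytosolic members Hspa1a and Hspa8. Hspa5 (chr2:34771970-34777547), the BiP chaperone that gates the unfolded protein response, had group means of 4372, 4748, 4733 and 5829 in G1 to G4. The log2 fold changes in the authors' deposited tables were 0.11 in G3/G1 and 0.30 in both comparisons of G4, with an implied SE of 0.33 and p-values of 0.372 and 0.365 for the latter. Its intervals reached ratios of 0.69 to 1.93, wider than for most genes of like total.

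Dnajb9 (chr12:44205559-44210326), an ER co-chaperone of BiP that directs misfolded proteins to degradation, had group means of 771, 809, 807 and 998. Its log2 fold change in the authors' deposited tables was 0.30 in G4/G2 (p = 0.0272, adjusted 0.422) and 0.31 in G4/G3 (p = 0.0254, adjusted 0.9997), with an implied SE of 0.14. The mean of G3/G1 and G4/G2 had a p of 0.0585 (adjusted 0.541), and the mean of the other pair a p of 0.0529 (adjusted 0.9995). The smallest unadjusted p of any member came from this gene, and it did not pass adjustment in any of these contrasts.

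Xbp1 (chr11:5520659-5525893), the transcription factor of the unfolded protein response whose messenger is activated by splicing, had group means of 1030, 1061, 1053 and 1186. Its log2 fold changes in the authors' deposited tables were 0.16 in G4/G2 (p = 0.221) and 0.17 in G4/G3 (p = 0.193), with an implied SE of 0.13, and the latter was 0.11 after removal of the same trends. Gene totals do not show its splicing. The order of groups was the same for Hspa5, Dnajb9 and Xbp1: G1, G3, G2 and G4 from low to high. Their G2 and G3 lay within a log2 difference of 0.01 of each other, far below the implied SEs. The cytosolic member Hspa8 had the same order, so it is not particular to the ER members.

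Median log2 fold changes set the compartments side by side. For the 7 cytosolic members they were 0.00 in G2/G1, 0.06 in G3/G1, 0.11 in G4/G2 and 0.09 in G4/G3. For the 3 ER members they were 0.07, 0.06, 0.30 and 0.30. The median over all genes was 0.00 in each comparison, and between 49.7% and 50.9% of genes were positive. Among the cytosolic members 3, 6, 6 and 5 of 7 were positive, and among the ER members 3 of 3 in each. Without Hspa1a and Hspa1b the cytosolic median was 0.02 in G3/G1 and 0.03 in G4/G2. After removal of the same trends it was 0.05 in G2/G1, 0.03 in G4/G2 and 0.03 in G4/G3, while the ER medians in G4/G2 and G4/G3 were 0.27 and 0.28. With 3 genes an ER median is the value of 1 gene, in both comparisons of G4 that of Hspa5, whose implied SE was 0.33. After removal of trends Dnajb9 stood at 0.29 in both, and Xbp1 at 0.12 in G4/G2 and 0.11 in G4/G3. No test was made over either group, since the genes were chosen with earlier results known.

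The precision of the members was unequal. The implied SE of Hspa1a, 0.48, was exceeded by 0.805% of 3106 genes with a total within 2-fold of its own, and that of Hspa1b, 0.55, by 0.759% of 4083 genes. For Hspa5, 0.33, the share was 2.82% of 850 genes, whose median SE was 0.09. Dnajb1 stood at 3.28%, Hspb1 at 5.11%, Hsph1 at 6.50% and Cryab at 8.64%. Hspa8, Xbp1 and Dnajb9, with SEs of 0.11 to 0.14, were exceeded by 28.6%, 25.1% and 24.2% of genes. Were the error due only to an equal spread between 3 libraries in every group, it would match a coefficient of variation of about 46.5% for Hspa1b. For Hspa8 the figure would be 9.31%. How the p-values weigh the spread between libraries is not stated, so neither figure is a measured spread within a group.

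**Figure D4:**
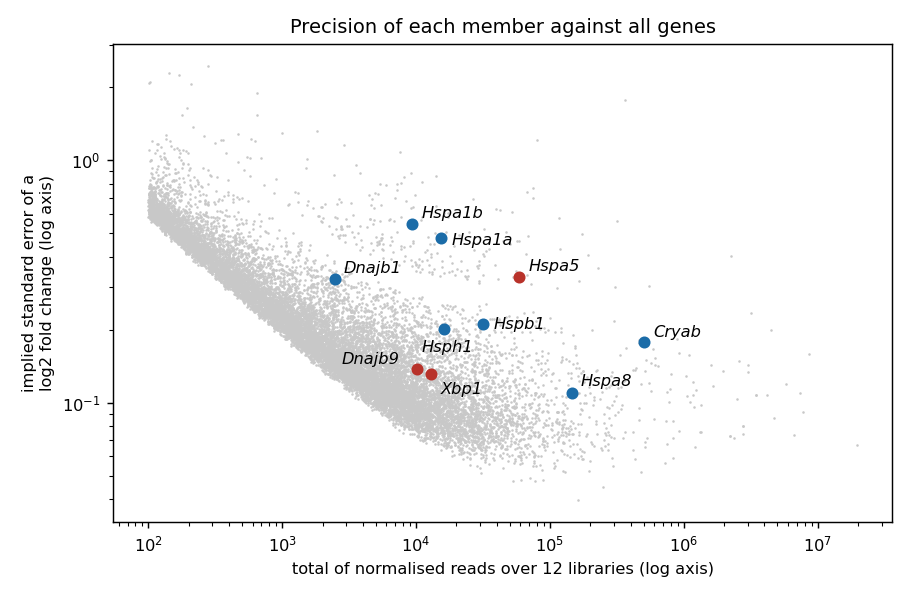
Implied standard error of a log2 fold change against the total of normalised reads over 12 libraries, both on log axes, with all genes of a total of at least 100 in grey, cytosolic members in blue and ER members in red. Hspa1a, Hspa1b and Hspa5 lie above most genes of their total, and Xbp1, Dnajb9 and Hspa8 lie within the band.

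The other chaperone and stress genes were taken from lists of the pathways around the members. Of 103 such genes measured at a total of at least 100, 0 were called in any of the 4 comparisons, and 1, 7, 6 and 4 had an unadjusted p under 0.05 in G2/G1, G3/G1, G4/G2 and G4/G3. Their medians were 0.03, 0.00, 0.01 and 0.02. Those of the 18 ER chaperones and folding enzymes other than the members were 0.06, 0.16, 0.10 and 0.02, with 14, 14, 13 and 9 positive. Single genes of these 18 lay between -0.22 and 0.53 in G4/G2 and between -0.29 and 0.65 in G4/G3, the highest being Manf in G4/G3. Positive values in the comparisons of G4 were thus found among these 18 genes as well, and no rise in G4 was called for either set. P4hb, a protein disulfide isomerase, had a log2 fold change of 0.11 in G4/G3 in the authors' deposited table (p = 0.0492), and Canx, the lectin chaperone calnexin, one of 0.19 in G3/G1 (p = 0.0832).

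Of the 10 sensors and effectors of the unfolded protein response, 7, 3, 3 and 5 were positive in these comparisons, and 0 were called. Atf4, the translation-controlled factor of this response, had log2 fold changes between -0.08 and 0.03, and Atf6, which is cut in the Golgi to become active, had its largest, 0.23, in the rebuilt G2/G1 (adjusted p = 1). The 11 measured genes of ER-associated degradation had 8, 9, 4 and 7 positive. Among them Vcp, the segregase that pulls proteins out of the ER, had log2 fold changes between -0.02 and 0.07, and Herpud1, a scaffold of the degradation complex, between -0.02 and 0.15.

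Of the 16 genes of the cytosolic HSP70 and HSP110 system, 10, 7, 8 and 9 were positive. Single genes of these 16 lay between -0.28 and 0.32 in G4/G2. Bag3, which couples HSP70 to autophagy of damaged sarcomere proteins, had log2 fold changes of 0.01 to 0.15, and Hspa4, a relative of HSP110, of -0.03 to 0.07. The 10 J-domain proteins had 6, 4, 8 and 8 positive, and Dnaja4 reached 0.27 in G4/G2 in the authors' deposited table (p = 0.0262, adjusted 0.414). Dnajb5 lay between -0.15 and 0.25. Of the 6 other small heat shock proteins, 5, 1, 2 and 5 were positive, and the muscle proteins Hspb7 and Hspb6 lay between -0.14 and 0.14. The HSP90 system of 12 genes had 6, 5, 5 and 5 positive. Single genes of these 12 lay between -0.77 and 0.14 in G3/G1 and between -0.70 and 0.11 in G4/G2. Hsp90ab1, the constitutive HSP90, had 0.14 in G3/G1 in the authors' deposited table (p = 0.0541). Its group means were 24212, 24148, 26648 and 24662 in G1 to G4. Smyd1, a methyltransferase that works with HSP90 on myosin, lay between -0.05 and 0.03.

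The heat shock factor list of 4 genes had 4, 2, 1 and 4 positive, with Hsf1, the main heat shock factor, between -0.12 and 0.02 and Hsbp1, which binds it, between 0.00 and 0.09. The 8 subunits of TRiC, the cytosolic chaperonin that folds actin and tubulin, had 5, 3, 3 and 6 positive, with Tcp1 between -0.04 and 0.07 and Cct8 between -0.11 and 0.05. The 8 mitochondrial chaperones had 1, 3, 7 and 4 positive, with medians of -0.07, 0.00, 0.08 and 0.00. Hspa9, the mitochondrial HSP70, lay between -0.08 and 0.00 and Hspd1, the HSP60 chaperonin, between -0.06 and 0.13.

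**Figure D5:**
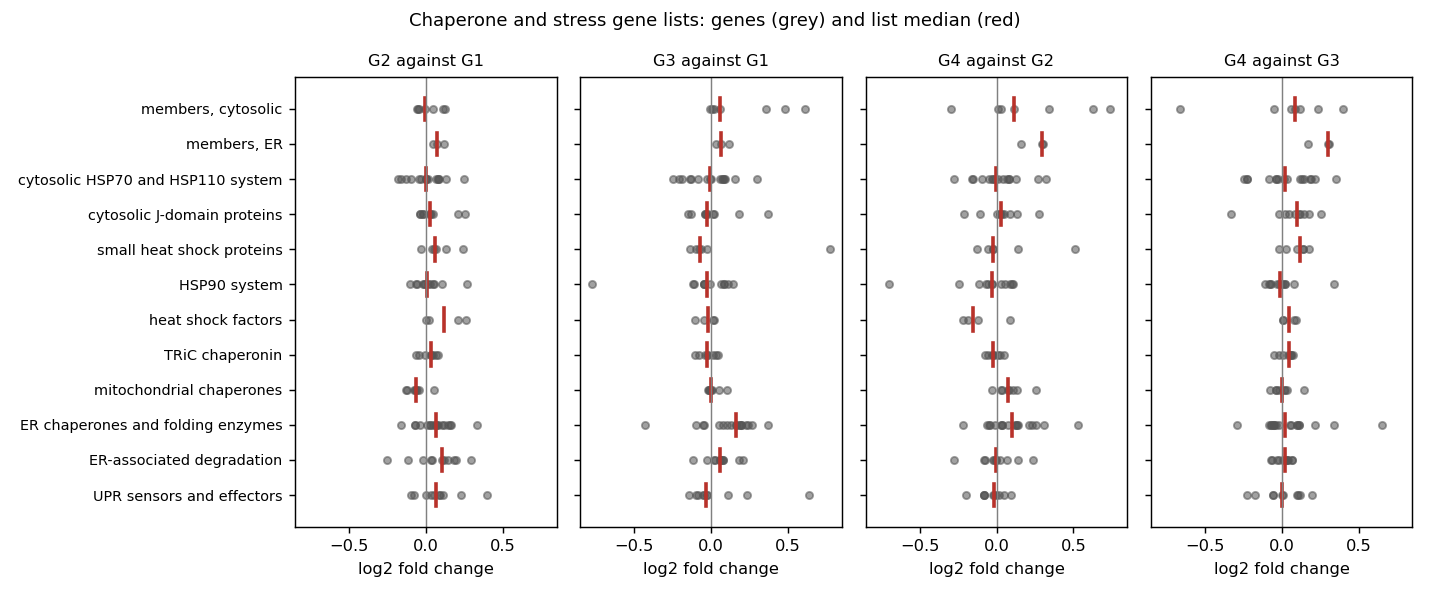
Log2 fold change of each gene (grey points) and the median (red bars) of the cytosolic and ER members and of each other chaperone and stress list, in the 4 comparisons. The ER members have a median of 0.30 in both comparisons of G4, and the 18 other ER chaperones and folding enzymes medians of 0.10 and 0.02. Single genes of these 18 lie between -0.22 and 0.53 in G4/G2 and between -0.29 and 0.65 in G4/G3.

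Genes whose 4 group levels were most like those of a member were sought among 10668 genes with a total of at least 1000, by the Euclidean distance between centred log2 levels. For Hspa1a the nearest were Jund at 0.03 and 2300009A05Rik at 0.04. For Hspa5 they were Trib1 at 0.03, Cpne2 and Siah1a, for Xbp1 Slc49a4, Rcc1 and Fmnl3, for Hsph1 Sppl2a, Cnot7 and Mterf3, and for Cryab Dazap1, Wipi2 and Adipor1. With 4 groups many genes share such a course, and these are descriptions with no test.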

How the data were processed

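RNA of soleus from 12 mice in 4 groups of 3 was sequenced, and the labels' protocols name a KAPA kit for stranded mRNA libraries. The submitters' processing notes name the builds mm10 and GRCm38 and, as tools, RSEM 1.2.15, Bowtie2 2.1.0 and edgeR without a version. How the p-values were made is not stated there. The 4 tables are the authors' comparisons. Per the file headers, they hold a total of counts per gene, deposited as a signal. That these are reads divided by library size factors and summed over 12 libraries was inferred from the values. The p-value columns and the adjusted p-values are those the authors deposited. The signed fold change is a score the authors deposited, and the log2 columns deposited by the authors are its logarithm.

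The tables hold no values per library, so the edgeR quasi-likelihood test could not be run and the authors' p-values were used. Implied standard errors are the absolute log2 divided by the normal quantile of its p. Values for G2/G1 that the deposited table does not list were rebuilt as the log2 of G3/G1 plus that of G4/G3 minus that of G4/G2. On 7792 listed genes the rebuilt log2 differed from the deposited one by at most 1.02e-14. The interaction and the averaged effects were adjusted over 15494 genes by the Benjamini-Hochberg procedure. Group levels came from the totals and the deposited ratios. Simulated data held 15494 genes, with 100 changed in G4 per fold size. G4/G2 recovered 71 at a fold of 2 and 95 at a fold of 4, with 8 false calls. The interaction recovered 61 and 86, with 8 false calls. The simulated fit was given each gene's true spread between libraries, so these counts do not give the power of the authors' tests. Promoters are from RefSeq, and annotation from GENCODE M21 on GRCm38, 1-based. Shared sequence was measured with exact 50-base words between transcripts. Python 3.11.15, numpy 2.4.6, scipy 1.17.1, pandas 2.3.3 and patsy 1.0.2 were used.

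All 10 members were named in every comparison. From each other list, every gene called in any comparison was named, and otherwise the 2 genes with the highest total. The nearest 3 genes were named for Hspa1a, Hsph1, Cryab, Hspa5 and Xbp1, except 1 that is not reported here. The members and lists were chosen with earlier results of these data known. The 12 libraries are separate animals by their numbers, and how the p-values weigh the spread between them is not stated. Alternatives were other adjustment sets, a fold of at least 1.5, a t distribution, other centring, removal of trends, and leaving out or summing copies.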

Additional observations from a re-analysis of the deposited data

How the results depend on the processing

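The count of members called was 0 in every comparison, in the interaction and in both averaged effects, under all the alternatives run. The t distribution and the fold of at least 1.5 can only remove calls, so neither could have added a member. Of 120 member log2 values, 116 kept their direction under other centring or removal of trends. The other 4 changed sign, all after removal of trends with GC content, length and total, where Cryab stood at 0.0453 in G2/G1 and at 0.0488 in G3/G1, Hsph1 at -0.0125 in G3/G1 and Hspa8 at -0.0109 in G4/G2. The cytosolic median in G4/G2 was 0.11, and 0.06 with near-identical copies summed, an alternative chosen after the data were seen. After removal of trends, the value of Hspa1b in G4/G3 was 0.03 in place of 0.09, and the cause was not tested. The lowest adjusted p of a member ranged from 0.366 to 0.930 in G4/G2. The call of Hsp25-ps1 in G4/G2 had an adjusted p of 0.0209 as deposited, between 0.0167 and 0.0411 with other sets of genes, 0.635 with the t distribution and 0.254 after removal of trends; the cause was not tested. No paired analysis was possible because the labels give no replicate numbers shared between groups and the tables hold no values per library, and for the same reason no library could be left out. Precision is limited by 3 animals a group, most for Hspa1a and Hspa1b.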

Other observations

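Immediate early genes, which respond quickly to stimulation, were listed beside the chaperones. Of 14 measured, 11, 13, 10 and 7 had positive log2 fold changes in G2/G1, G3/G1, G4/G2 and G4/G3, with medians of 0.10, 0.29, 0.21 and -0.02. None was called, and 0, 1, 3 and 1 had an unadjusted p under 0.05. Jun, a subunit of AP-1, had log2 fold changes of 0.31 in G3/G1 and 0.33 in G4/G2 in the authors' deposited tables, with an implied SE of 0.17. Nr4a1, a nuclear receptor induced by exercise, had 0.25 and -0.29, with an implied SE of 0.60. Their part in the levels of Hspa1a and Hspa1b was not tested.

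Markers of other cell types moved between groups as well. Medians of 6 adipocyte markers were -0.77, -0.46, 0.46 and 0.13 in the same 4 comparisons, those of 5 erythroid markers -0.70, 0.02, 0.40 and -0.21, those of 7 macrophage markers -0.37, -0.03, -0.11 and -0.39, and those of 8 endothelial markers -0.10, -0.02, 0.19 and 0.08. Those of 7 fast fibre markers were -0.13, -0.38, -0.24 and 0.09, those of 9 soleus fibre markers 0.16, -0.02, -0.10 and 0.09, those of 3 satellite cell markers 0.07, 0.08, -0.33 and -0.18, and those of 5 fibroblast markers -0.04, 0.24, 0.09 and -0.25. Of all these markers only Lum, a proteoglycan of fibroblasts, was called in these comparisons, with a log2 fold change of 0.58 in G3/G1 in the authors' deposited table (adjusted p = 0.0128). Of 4 neutrophil markers, 3 had a total below 100, and Ly6g was not matched in the tables. Their part in the chaperone levels was not tested.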
